A study of Mus musculus with 8 samples.

Results

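Neutrophils generated in culture from naive mouse bone marrow were sorted by flow cytometry into a CD71+ and a CD71- fraction, and all genes were compared between 2 CD71+ and 2 CD71- libraries, which are 4 of the 8 libraries of the series. The other 4 libraries hold CD71+ and CD71- neutrophils, 2 libraries each, sorted from brain tumours tied by the labels to the mouse line SB28. They share the filter that chose the tested genes, the scaling and the fit, which lends its estimate of spread. Beyond that they mainly enter a test of whether the CD71 difference of 11 genes differed between culture and tumour. No transgene, deletion or drug is named for any group. The labels give neither the age, sex and strain of the mice, nor the cytokines and duration of the culture, nor the antibody panel of the sort.

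CD71 is the transferrin receptor, the product of Tfrc, which carries iron-loaded transferrin into the cell and is most abundant on dividing and iron-hungry cells. During neutrophil formation it is high on dividing precursors and is lost as the cells mature. Genes of the primary granules, then of the secondary granules, and then of chemokine receptors come on in sequence. Transferrin receptor protein is set to a large part after transcription, because iron-regulatory proteins bind and stabilise Tfrc mRNA when iron is scarce.

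Total counts were 22615813 and 19385298 in CD71+ replicates 1 and 2, against 13816733 and 9598959 in CD71- replicates 1 and 2. Both CD71+ libraries were therefore deeper, and a gene with 0 counts allows 3 counts, which is 0.0916 and 0.104 CPM (counts scaled to a common library size by TMM) in the CD71+ libraries and 0.178 and 0.272 CPM in the CD71- libraries. The 2 CD71- libraries stood apart from each other. Among 9549 genes of at least 5 CPM on average, 7 (0.0733%) differed over 2-fold between the CD71+ libraries and 509 (5.33%) between the CD71- libraries. In a principal component analysis of the 1000 most variable genes, the first component (81.5% of the variance) separated CD71+ from CD71- and the second (16.5%) separated CD71- replicate 1 from CD71- replicate 2. Nothing in the labels says whether the 2 libraries of a fraction come from different animals or different cultures. The p-values therefore cover only the variation between these libraries, part or all of which may be technical. Since RNA was measured in bulk, fewer cells of a type and less RNA per cell cannot be told apart.

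Of 15975 genes tested, 2595 (16.2%) passed an adjusted p of 0.05 in the quasi-likelihood test of edgeR, adjusted by Benjamini-Hochberg. In CD71+ cells 1259 genes (7.88%) were higher and 1336 (8.36%) were lower, and the median log2 fold change of all tested genes, CD71+ over CD71-, was 0.026. At 2-fold or more, 911 genes (5.7%) were higher and 621 (3.89%) were lower. The split depended on the scaling of the libraries. With total counts in place of TMM the median of all genes lay at 0.34 and 3236 genes passed, 2618 higher and 618 lower, so lower levels are stated relative to TMM scaling throughout. With a single culture library left out, its group holds 1 library, whose spread is assumed to be that of the other groups. Counts of passing genes are then not comparable with 2595. Leaving out any single culture library, from either fraction, lost part of the 2595 calls. The median log2 fold change of all tested genes was 0.0053 and 0.036 without CD71+ replicates 1 and 2. It was 0.11 and 0.033 without CD71- replicates 1 and 2. No gene passed in the opposite direction under any of these settings. Below, counts given without each culture library in turn are in the order CD71+ replicate 1, CD71+ replicate 2, CD71- replicate 1, CD71- replicate 2. Counts of each gene list stand beside the shares of all tested genes, 7.88% higher and 8.36% lower. By DESeq2's Wald test 2781 genes passed, 1098 higher and 1683 lower. In a fit of the culture libraries alone 15115 genes were tested and 2328 passed, of which 2062 were among the 2595.

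**Figure D1:**
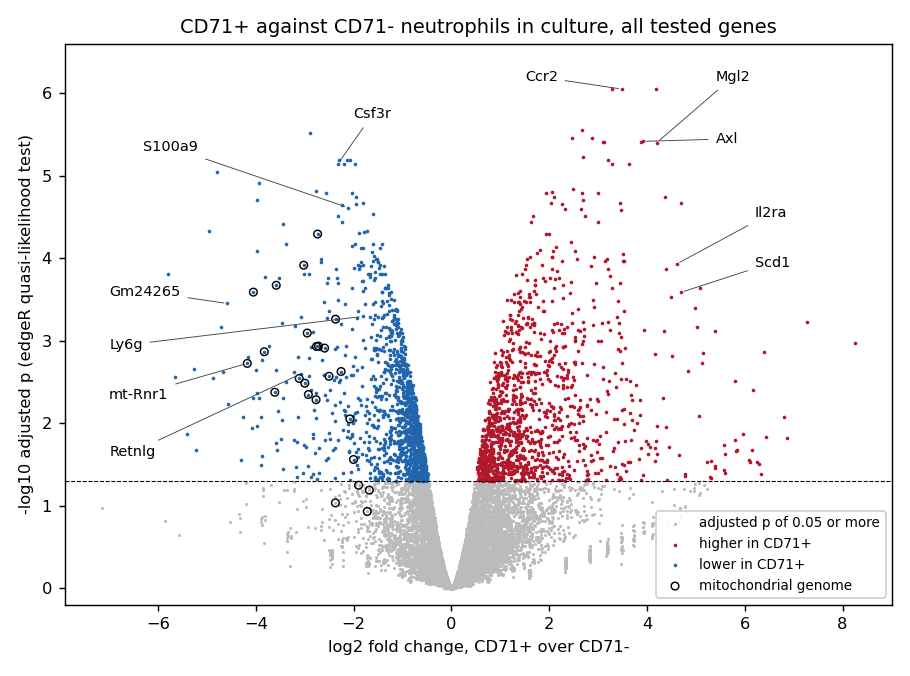
Each point is 1 of the 15975 tested genes, with its log2 fold change (CD71+ over CD71-) on the x axis and the negative log10 of its adjusted p on the y axis, and the dashed line marks an adjusted p of 0.05. Macrophage-associated Mgl2, Ccr2 and Axl stand at the upper right, neutrophil genes Csf3r and S100a9 at the upper left, and genes of the mitochondrial genome (circles) lie on the left. Folds of genes with no count in 1 fraction are fitted values and no bounds.

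Under TMM scaling the mRNA of the sort marker did not separate the fractions. Tfrc (mm10, chr16:32608920-32632794, plus strand) had 116 and 115 CPM in the CD71+ libraries, against 131 and 94.4 CPM in the CD71- libraries. The 2 CD71- values lay on either side of the CD71+ values, with means of 115 ± 0.742 CPM in CD71+ and 113 ± 25.7 CPM in CD71- libraries (SD, n = 2 each) (log2 fold change 0.033, SE 0.19, adjusted p = 0.94). The reading depended on the scaling. As TPM (counts per exon length, scaled to a fixed sum per library without TMM), Tfrc had 105 and 107 in the CD71+ libraries. The CD71- libraries had 86.9 and 47.9 TPM, so on that scale both CD71+ libraries lay higher. The length of a gene is the same in every library, so this shift comes from the scaling and not from length. The TPM scale moves every gene down in the CD71- libraries against the CD71+ libraries, relative to CPM. The sort was made on the surface protein, which these data do not measure, so Tfrc does not check the labels.

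Of 30 genes of mature neutrophils, 14 were lower in CD71+ cells, 2 were higher and 14 did not pass. Csf3r, which encodes the receptor for the granulocyte growth factor G-CSF (chr4:126024550-126044440, plus strand), had 312 and 351 CPM in the CD71+ libraries, against 1877 and 1449 CPM in the CD71- libraries, and every CD71+ library lay far below every CD71- library. The means were 332 ± 27.9 CPM in CD71+ and 1663 ± 302 CPM in CD71- libraries (SD, n = 2 each) (log2 fold change -2.33, SE 0.19, adjusted p = 7.19e-06). Ly6g, the surface antigen used to define mouse neutrophils, had 23.1 and 16.3 CPM in the CD71+ libraries, against 78.3 and 60.3 CPM in the CD71- libraries (log2 fold change -1.81, SE 0.26, adjusted p = 0.000505). S100a8 and S100a9, the 2 subunits of calprotectin, behaved alike. S100a9 had 349.6 and 273 CPM in the CD71+ libraries, against 1124 and 1565 CPM in the CD71- libraries, and S100a8 had 419.6 and 336 CPM in CD71+ against 1081 and 1566 CPM in CD71-, so that both CD71+ libraries lay below both CD71- libraries for each (log2 fold change -2.11, adjusted p = 2.42e-05 for S100a9 and log2 fold change -1.81, adjusted p = 0.000121 for S100a8). Retnlg, a secreted resistin-like protein of neutrophils, showed the widest gap of the list, with 22.4 and 14.9 CPM in the CD71+ libraries, against 191 and 123 CPM in the CD71- libraries (log2 fold change -3.07, SE 0.44, adjusted p = 0.0025). Cxcr2, the chemokine receptor that draws neutrophils out of the marrow, was lower as well under TMM scaling. It had 333 and 310.3 CPM in CD71+ against 736 and 504 CPM in CD71- (log2 fold change -0.95, adjusted p = 0.00607). As TPM it had 610 and 585 in CD71+ against 993 and 518 in CD71- libraries. On that scale the groups overlapped, through the same change of scaling. Over the whole list 2 of 30 tested members rose and 14 fell (median log2 fold change -0.59). With scaling by total counts 3 rose and 10 fell (median -0.28), and 11, 10, 16 and 15 fell without each culture library in turn. The 2 members that were higher were Csf2rb, the shared signalling chain of the GM-CSF receptor, with 2866 and 2622 CPM in CD71+ against 1535 and 1394 CPM in CD71- (log2 fold change 0.91, adjusted p = 0.00622), and the chemokine gene Ccl6 (log2 fold change 0.78, adjusted p = 0.0121). Cxcr2 had an adjusted p of 0.0513, 0.05 and 0.0686 with scaling by total counts, without CD71+ replicate 1 and CD71+ replicate 2. Csf2rb had an adjusted p of 0.0608 without CD71+ replicate 1. Ccl6 had an adjusted p of 0.0636 and 0.199 in a fit of the culture libraries alone and without CD71+ replicate 1. Of the mature neutrophil list, 0, 2, 4 and 2 members rose without each culture library in turn.

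The defining genes of the first granules were low in both fractions, while some other members of the early neutrophil and primary granule list were not. That list also holds genes that are not granule genes, Calr and Tuba1b among them. Elane and Ctsg, the primary granule proteases neutrophil elastase and cathepsin G, and Mpo, myeloperoxidase, stayed under 1 CPM in every library, and the protease gene Prtn3 had 1.98 and 2.25 CPM in the CD71+ libraries, against 1.42 and 2.36 CPM in the CD71- libraries with overlapping groups. These are the defining genes of promyelocytes, so neither fraction held their transcripts at a level that could be compared. Over the early neutrophil and primary granule list, 8 of 20 members exceeded 5 CPM in all 4 libraries, and the list summed to 915 and 723 CPM in CD71+ and 538 and 541 CPM in CD71- libraries. Of the early neutrophil and primary granule list 3 of 16 tested members rose and 2 fell, among the first Ctsc, which activates granule proteases, with 421 and 313 CPM in CD71+ against 182 and 140.0 CPM in CD71- (log2 fold change 1.19, SE 0.19, adjusted p = 0.001). Of the secondary granule list 0 of 17 tested members rose and 5 fell (median -0.61). Serpinb1a, a protease inhibitor, had 10.2 and 8.93 CPM in the CD71+ libraries, against 23.5 and 34.8 CPM in the CD71- libraries (log2 fold change -1.60, SE 0.30, adjusted p = 0.00269), and the antimicrobial peptide gene Camp had 2.44 and 2.32 CPM in CD71+ against 5.46 and 15.1 CPM in CD71- (log2 fold change -2.09, adjusted p = 0.0217), with CD71- replicate 2 well above CD71- replicate 1. Lactoferrin, Ltf, had 67.4 and 68.6 CPM in CD71+ against 83 and 124 CPM in CD71- and did not pass (log2 fold change -0.61, adjusted p = 0.336). Camp had an adjusted p of 0.149, 0.142 and 0.158 without CD71+ replicate 1, CD71+ replicate 2 and CD71- replicate 2. Of the early neutrophil list, 1, 3, 2 and 5 members rose and 1, 1, 4 and 2 members fell without each culture library in turn. In the early neutrophil list 5 rose and 1 fell (median log2 fold change 0.59) with scaling by total counts. Of the secondary granule list, 3, 2, 7 and 4 members fell without each culture library in turn. In the secondary granule list 1 rose and 4 fell (median log2 fold change -0.29) with scaling by total counts.

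Markers of macrophages and monocytes were higher in CD71+ cells, some from a low base and others from a level that both fractions shared. Csf1r, the receptor for the macrophage growth factor M-CSF, had 792 and 704 CPM in the CD71+ libraries, against 527 and 566 CPM in the CD71- libraries, so it was abundant in both fractions and did not pass (log2 fold change 0.45, SE 0.17, adjusted p = 0.0841); an exon of Hmgxb3 lies opposite to it. Adgre1, which encodes F4/80, had 98.5 and 85.3 CPM in CD71+ against 60.1 and 61.3 CPM in CD71- (log2 fold change 0.60, adjusted p = 0.0231). Larger gaps were seen for genes of engulfment and monocyte traffic. Axl, a receptor tyrosine kinase for apoptotic cells, had 20.1 and 18.4 CPM in the CD71+ libraries, against 1.01 and 1.63 CPM in the CD71- libraries (log2 fold change 3.91, SE 0.29, adjusted p = 3.81e-06), and its relative Mertk had 17.4 and 15.4 CPM in CD71+ against 2.13 and 0.817 CPM in CD71- (log2 fold change 3.38, adjusted p = 0.000512). Ccr2, the chemokine receptor of inflammatory monocytes, had 100.4 and 93.5 CPM in the CD71+ libraries, against 9.19 and 7.99 CPM in the CD71- libraries, and the CD71+ libraries lay far above the CD71- libraries (log2 fold change 3.49, SE 0.20, adjusted p = 8.85e-07). C1qa, a complement subunit of tissue macrophages, had 0.733 and 0.381 CPM in CD71+ against 0 and 0 CPM in CD71-, at least 2.47-fold higher in CD71+ against a floor of 3 counts per library. Of the macrophage and monocyte list 16 of 23 tested members rose and 0 fell. Its median log2 fold change was 2.20, or 1.40 with the 2 members at 0 in CD71- placed at their bound, beside 0.026 for all genes. In a fit of the culture libraries alone 13 of 21 tested members rose and 0 fell (median log2 fold change 1.53). As TPM, S100a8 stood at 3377 and 2784 in the CD71+ libraries and 6404 and 7078 in the CD71- libraries. Csf1r stood at 766 and 700.4 TPM in the CD71+ libraries and 375 and 308 TPM in the CD71- libraries. That scale moves every gene down in the CD71- libraries against the CD71+ libraries, relative to CPM. Summed over the list, macrophage and monocyte genes stood at 2839 and 2349.7 CPM in CD71+ and 1182 and 1273 CPM in CD71- libraries, and mature neutrophil genes at 10345 and 8843 CPM in CD71+ and 13642 and 13201 CPM in CD71- libraries. Whether other cells in the sort gate take part in these differences was not tested. Csf1r passed with scaling by total counts (adjusted p = 0.00787) and with no filter on low counts (adjusted p = 0.0494). Adgre1 had an adjusted p of 0.0521, 0.253 and 0.0698 in a fit of the culture libraries alone, without CD71+ replicate 1 and CD71+ replicate 2. Mertk had a log2 fold change of 4.34 without CD71- replicate 1.

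**Figure D2:**
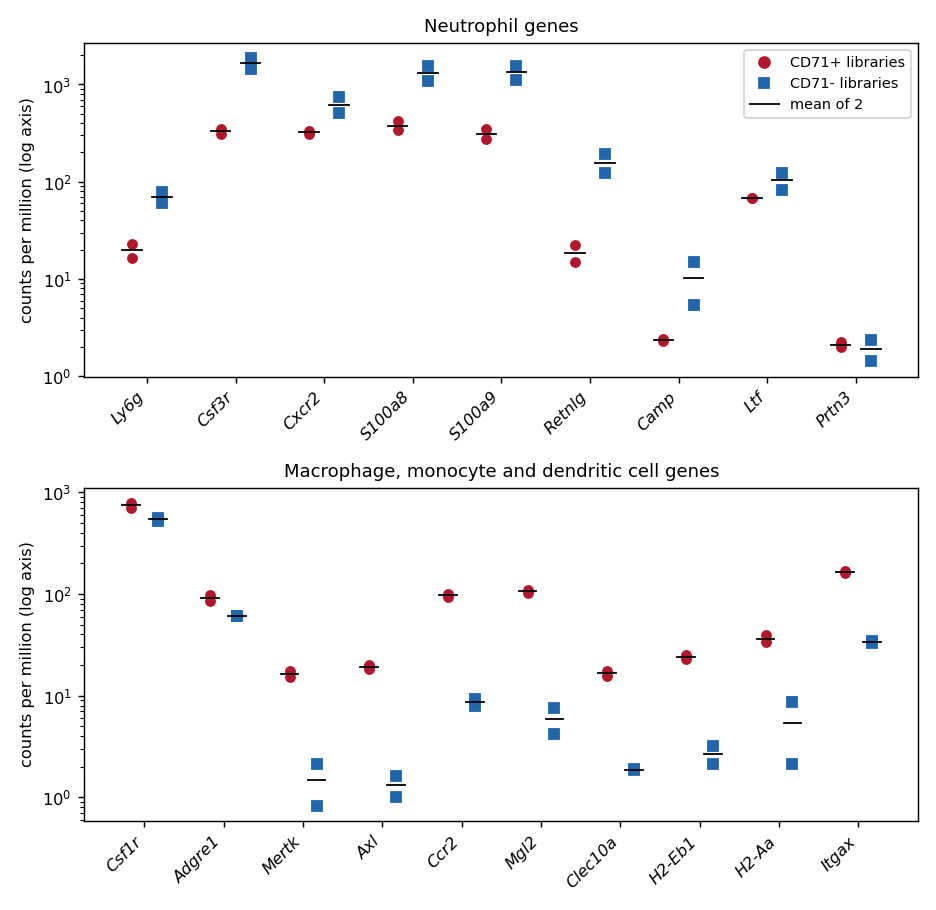
Level in CPM (log axis) of neutrophil genes (top) and of macrophage, monocyte and dendritic cell genes (bottom) in each culture library, with CD71+ libraries as red circles left of CD71- libraries as blue squares and a line at the mean of 2. Csf3r, S100a8, S100a9 and Retnlg lie lower in both CD71+ libraries, while Axl, Ccr2, Mgl2 and Clec10a lie higher, and Prtn3 overlaps.

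Dendritic cell genes shared with activated macrophages were higher in CD71+ cells, while genes that define dendritic cells were not. Mgl2 (chr11:70130329-70137550, plus strand) and Clec10a encode the neighbouring galactose-type lectins CD301b and CD301a. Mgl2 had 109 and 103 CPM in the CD71+ libraries, against 4.21 and 7.53 CPM in the CD71- libraries, with means of 106 ± 3.87 CPM in CD71+ and 5.87 ± 2.35 CPM in CD71- libraries (SD, n = 2 each) (log2 fold change 4.20, SE 0.31, adjusted p = 3.95e-06), and Clec10a had 17.7 and 15.5 CPM in CD71+ against 1.84 and 1.91 CPM in CD71- (log2 fold change 3.14, adjusted p = 0.000108). Itgax, the integrin subunit CD11c, had 168 and 160.1 CPM in the CD71+ libraries, against 34.9 and 33.2 CPM in the CD71- libraries (log2 fold change 2.27, SE 0.25, adjusted p = 0.000108), and Ccl22, a chemokine for regulatory T cells, had 23.4 and 19.3 CPM in CD71+ against 1.3 and 3.18 CPM in CD71- (log2 fold change 3.30, adjusted p = 0.0216). Of the list 10 of 16 tested members rose and 0 fell (median 2.36, or 2.45 without the member at or under the floor in both fractions). Its summed level was 417 and 412 CPM in CD71+ libraries and 62.4 and 76.1 CPM in CD71- libraries. Among the defining markers, Flt3 and Xcr1 stayed under 1 CPM in all 4 libraries, Clec9a had 1.4 and 0.554 CPM in CD71+ against 1.42 and 0.545 CPM in CD71-, and the transcription factor gene Zbtb46 had 2.2 and 2.18 CPM in CD71+ against 4.09 and 3.09 CPM in CD71- (log2 fold change -0.72, adjusted p = 0.286). Whether dendritic cells take part in the difference was not tested. Ccl22 had an adjusted p of 0.124, 0.0933, 0.139 and 0.0714 without CD71+ replicate 1, CD71+ replicate 2, CD71- replicate 1 and CD71- replicate 2.

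Genes of MHC class II presentation were among the antigen presentation genes that were higher in CD71+ cells. Class II molecules present peptides from the endosome to CD4+ T cells, and their genes are switched on together by the coactivator Ciita, which docks on proteins bound to the X and Y boxes of their promoters. Ciita had 9.65 and 14 CPM in the CD71+ libraries, against 0.297 and 2 CPM in the CD71- libraries (log2 fold change 3.49, SE 0.60, adjusted p = 0.00187). H2-Eb1, a class II beta chain, had 25.3 and 22.8 CPM in the CD71+ libraries, against 2.13 and 3.18 CPM in the CD71- libraries, and every CD71+ library lay above every CD71- library (log2 fold change 3.21, SE 0.26, adjusted p = 6.47e-06). The alpha chain gene H2-Aa had 39.5 and 33.5 CPM in CD71+ against 2.13 and 8.62 CPM in CD71- (log2 fold change 2.83, adjusted p = 0.00503). Of the antigen presentation list, which shares Ciita with the dendritic cell list, 10 of 21 tested members rose and 1 fell (median 0.65). The member that fell was the class I gene H2-D1, with 269 and 240.3 CPM in CD71+ against 399.6 and 446 CPM in CD71- (log2 fold change -0.73, adjusted p = 0.00747). Ciita had a log2 fold change of 2.58 and 5.29 without CD71- replicate 1 and CD71- replicate 2. H2-Aa had an adjusted p of 0.0546 without CD71+ replicate 1, and a log2 fold change of 2.10 and 4.10 without CD71- replicate 1 and CD71- replicate 2. H2-D1 had an adjusted p of 0.0865, 0.06 and 0.128 with scaling by total counts, without CD71+ replicate 1 and CD71+ replicate 2. Of the antigen presentation list, 0, 0, 1 and 1 members fell without each culture library in turn. In the antigen presentation list 14 rose and 0 fell (median log2 fold change 0.95) with scaling by total counts.

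The promoters of H2-Eb1 and H2-Aa are shown because these genes moved together with Ciita. Each line gives 250 bases before to 50 bases after the start site (RefSeq, GRCm38.p6), 5′ to 3′ on the strand of the gene, H2-Eb1 at chr17:34305617-34305916 (plus strand) and H2-Aa at chr17:34287774-34288073 (minus strand). Capitals mark the Y box TGATTGG and, in H2-Eb1, the X box (AGCAAC, any base, then GATG), searched on both strands.
H2-Eb1: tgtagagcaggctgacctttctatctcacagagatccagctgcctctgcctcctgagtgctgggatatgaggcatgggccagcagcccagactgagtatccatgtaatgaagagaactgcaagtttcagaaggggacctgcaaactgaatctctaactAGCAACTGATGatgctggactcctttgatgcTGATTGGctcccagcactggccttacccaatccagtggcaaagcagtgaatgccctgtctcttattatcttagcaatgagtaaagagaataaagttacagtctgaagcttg
H2-Aa: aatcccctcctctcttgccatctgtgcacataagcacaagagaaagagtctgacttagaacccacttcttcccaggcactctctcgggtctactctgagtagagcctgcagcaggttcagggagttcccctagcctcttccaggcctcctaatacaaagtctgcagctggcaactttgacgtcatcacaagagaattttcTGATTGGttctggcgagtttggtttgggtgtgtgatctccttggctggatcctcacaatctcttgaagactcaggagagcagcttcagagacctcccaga
The Y box letters include a CCAAT box read on the other strand. They were found in 8 of the 13 antigen presentation genes with a promoter in the table (61.5%), against 9% of 27025 genes, and in 10 of 18 sterol and fatty acid synthesis genes (55.6%), so they were not particular to antigen presentation. The X box letters were found in 1 of the 13, against 0.0851% of all genes. H2-K1, H2-D1 and Tap1, class I genes, also hold the Y box letters. A match is a description of letters and no evidence of binding.

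Genes of cholesterol and fatty acid synthesis, enzymes and their regulators, were higher in CD71+ cells in 17 of 26 cases, and the other 9 did not pass. Scd1, the desaturase that makes oleate from stearate (chr19:44394455-44407879, minus strand), had 20.6 and 18.7 CPM in the CD71+ libraries, against 0.771 and 0.726 CPM in the CD71- libraries, the widest gap that the rule for the 12 largest rises returned (log2 fold change 4.69, SE 0.56, adjusted p = 0.000258). Fads2, which desaturates polyunsaturated fatty acids and stood outside the sterol and fatty acid synthesis list, had 11.5 and 13.7 CPM in the CD71+ libraries, against 1.19 and 0.545 CPM in the CD71- libraries (log2 fold change 3.78, SE 0.68, adjusted p = 0.00341). In the sterol branch, Dhcr7, which makes cholesterol from its last precursor, had 11.4 and 8.86 CPM in the CD71+ libraries, against 1.9 and 2.81 CPM in the CD71- libraries (log2 fold change 2.12, SE 0.35, adjusted p = 0.00122). Fasn, fatty acid synthase, had 62 and 72.5 CPM in CD71+ against 14.8 and 28.5 CPM in CD71- (log2 fold change 1.64, adjusted p = 0.0161), and CD71- replicate 2 lay closest to the CD71+ libraries. Of the list 17 of 26 tested members rose and 0 fell (median 0.94, beside 0.026 for all genes), with log2 fold changes of 0.71 to 4.69 among those that rose. They include the enzyme genes Sqle (1.53), Cyp51 (1.61), Nsdhl (1.54), Hmgcs1 (0.86) and the feedback regulator gene Insig1 (0.84), which are given here because they outline the pathway and were chosen after their values were seen. The genes of the activating factors themselves, Srebf1 and Srebf2, did not pass. Fads2 had a log2 fold change of 4.53 without CD71- replicate 1. Fasn had an adjusted p of 0.0584, 0.0801 and 0.0555 without CD71+ replicate 1, CD71+ replicate 2 and CD71- replicate 1. Of the sterol and fatty acid synthesis list, 8, 11, 14 and 18 members rose without each culture library in turn.

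**Figure D3:**
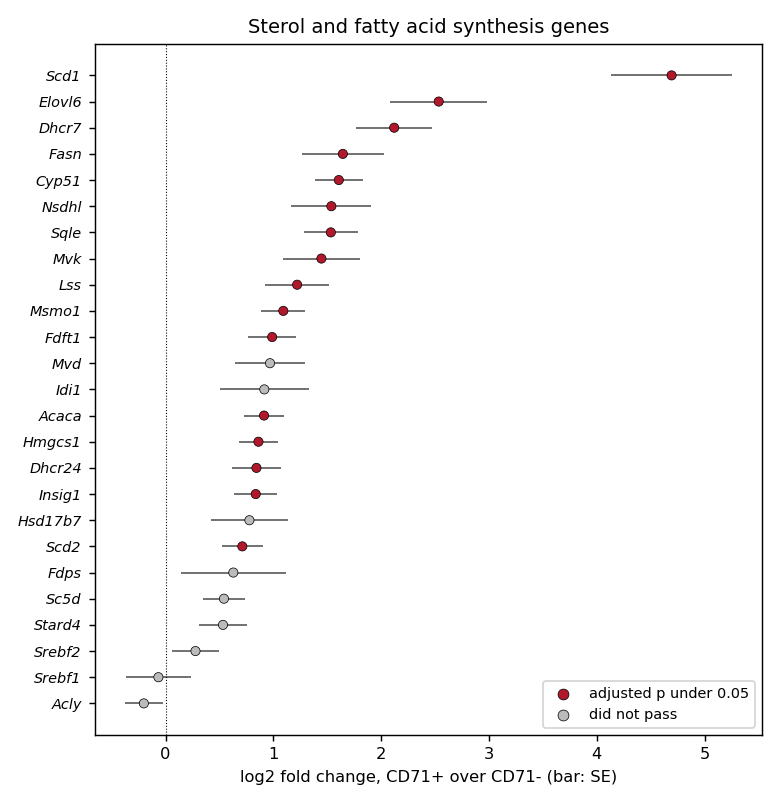
Log2 fold change (CD71+ over CD71-) of genes of the sterol and fatty acid synthesis list, 1 row a gene, with its standard error as a bar, in red where the adjusted p is under 0.05. The genes that passed lie right of 0, from Scd2 (0.71) to Scd1 (4.69), and Srebf1 and Acly lie just left of 0 and did not pass.

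The promoters of Hmgcs1 and Dhcr7 are shown because sterol genes are known to be switched on by SREBP together with the CCAAT-binding factor NF-Y. The lines give 250 bases before to 50 bases after the start site (RefSeq, GRCm38.p6), 5′ to 3′, Hmgcs1 at chr13:119690101-119690400 (plus strand) and Dhcr7 at chr7:143829964-143830263 (plus strand, 1 of 3 starts in the table). Capitals mark the CCAAT box on either strand (CCAAT or ATTGG) and, in Hmgcs1, the sterol regulatory element TCACCCCAC.
Hmgcs1: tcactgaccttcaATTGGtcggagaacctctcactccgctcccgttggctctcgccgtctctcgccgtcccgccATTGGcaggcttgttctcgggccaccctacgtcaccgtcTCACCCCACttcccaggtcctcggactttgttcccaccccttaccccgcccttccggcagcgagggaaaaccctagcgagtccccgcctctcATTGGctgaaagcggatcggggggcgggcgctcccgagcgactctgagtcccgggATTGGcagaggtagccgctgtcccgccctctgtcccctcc
Dhcr7: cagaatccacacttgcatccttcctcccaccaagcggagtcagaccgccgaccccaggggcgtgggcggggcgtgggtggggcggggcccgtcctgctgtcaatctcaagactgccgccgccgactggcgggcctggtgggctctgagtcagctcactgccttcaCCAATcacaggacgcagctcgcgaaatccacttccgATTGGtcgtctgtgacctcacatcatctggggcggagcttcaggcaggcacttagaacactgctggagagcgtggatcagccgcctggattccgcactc
CCAAT letters were found in 16 of the 18 genes of the list with a promoter in the table (88.9%), against 41.1% of 27025 genes, in 11 of 13 antigen presentation genes (84.6%) and in 10 of 24 mature neutrophil genes (41.7%). The sterol regulatory element letters were found in 1 of the 18 (5.56%) and in 1 of the 13 antigen presentation genes (7.69%), against 0.614% of all genes, both strands searched. No match says only that these letters are not in this window.

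Lipid uptake and storage genes were higher in part. Lpl, the lipase that frees fatty acids from lipoproteins, had 463 and 352 CPM in the CD71+ libraries, against 39.3 and 44 CPM in the CD71- libraries, and every CD71+ library lay far above every CD71- library (log2 fold change 3.29, SE 0.20, adjusted p = 8.85e-07). The scavenger receptors Msr1 and Olr1 (LOX-1) had 93.5 and 85.5 CPM in CD71+ against 21.5 and 21.6 CPM in CD71- for Msr1 (log2 fold change 2.05, adjusted p = 1.56e-05) and 96.2 and 94.4 CPM in CD71+ against 38.9 and 32.8 CPM in CD71- for Olr1 (log2 fold change 1.41, adjusted p = 0.000292). Of the lipid uptake, storage and efflux list 12 of 26 tested members rose and 1 fell (median 0.56). Msr1 also counts in the pattern recognition and Fc receptor list, and Olr1 in the suppressive neutrophil list. Of the lipid uptake list, 5, 8, 11 and 8 members rose and 0, 0, 2 and 1 members fell without each culture library in turn. In the lipid uptake list 16 rose and 0 fell (median log2 fold change 0.87) with scaling by total counts.

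Lysosomal enzymes and proteases were higher in CD71+ cells. Mmp12, macrophage elastase, had 423 and 349.7 CPM in the CD71+ libraries, against 29.7 and 32.6 CPM in the CD71- libraries (log2 fold change 3.63, SE 0.28, adjusted p = 7.19e-06). Lgmn, the lysosomal protease legumain, had 23.1 and 17.5 CPM in CD71+ against 4.86 and 6.45 CPM in CD71- (log2 fold change 1.86, adjusted p = 0.000122), and Atp6v0d2, a subunit of the proton pump that acidifies lysosomes, had 85.1 and 69.4 CPM in CD71+ against 20.8 and 28.8 CPM in CD71- (log2 fold change 1.64, adjusted p = 0.000537). Both CD71+ libraries lay above both CD71- libraries for each of these. Of the list 17 of 29 tested members rose and 0 fell (median 0.87). Genes of alternative activation, the macrophage state induced by IL-4, moved in the same direction for the most part. There 11 of 20 tested members rose and 1 fell (median 1.29), among them Mgl2, Clec10a and Ccl22, which the dendritic cell list also holds. Stat6, the factor that carries the IL-4 signal, fell, with 357 and 359.6 CPM in CD71+ against 837 and 780.0 CPM in CD71- (log2 fold change -1.17, adjusted p = 0.000323). Of the lysosome list, 10, 16, 16 and 17 members rose without each culture library in turn. Of the alternative activation list, 8, 9, 7 and 12 members rose without each culture library in turn.

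Of the remaining genes with the 12 largest rises, Il2ra, the alpha chain of the IL-2 receptor, had 11.6 and 11.6 CPM in the CD71+ libraries, against 0.415 and 0.545 CPM in the CD71- libraries (log2 fold change 4.60, SE 0.54, adjusted p = 0.000117). Fcrls, an Fc receptor-like gene of mouse myeloid cells, had 10.5 and 9.52 CPM in the CD71+ libraries, against 0.771 and 0.545 CPM in the CD71- libraries (log2 fold change 3.87, adjusted p = 3.91e-06). The long noncoding genes AI504432 and 4930512J16Rik had 22 and 20.9 CPM in CD71+ against 1.25 and 1.09 CPM in CD71- (log2 fold change 4.18, adjusted p = 8.85e-07) and 11.8 and 15.8 CPM in CD71+ against 1.3 and 1.09 CPM in CD71- (log2 fold change 3.51, adjusted p = 0.000108). For each, the CD71+ libraries lay above the CD71- libraries with no overlap, as was the case for 9716 of all genes tested (60.8%).

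Transcription factor genes of granulocytes and monocytes changed in both directions. Irf4, a factor of alternatively activated macrophages and dendritic cells, had 164 and 149 CPM in the CD71+ libraries, against 77.2 and 80 CPM in the CD71- libraries (log2 fold change 0.996, SE 0.18, adjusted p = 0.00251), and Klf4, a factor of monocyte formation, had 9.01 and 8.79 CPM in CD71+ against 2.67 and 4.36 CPM in CD71- (log2 fold change 1.37, adjusted p = 0.00296). Maf, which encodes a bZIP factor of macrophages and T cells, was lower, with 37.8 and 33.9 CPM in CD71+ against 108 and 92.7 CPM in CD71- (log2 fold change -1.48, adjusted p = 0.000131). Of the list 8 of 26 tested members rose and 3 fell (median 0.0018). Of the granulocyte and monocyte factor list, 5, 6, 7 and 7 members rose and 1, 1, 5 and 1 members fell without each culture library in turn. In the granulocyte and monocyte factor list 10 rose and 1 fell (median log2 fold change 0.32) with scaling by total counts.

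Chemokine and cytokine genes were higher in CD71+ cells where they passed. Ccl9 and Ccl4, chemokines for monocytes and other leukocytes, had 464 and 377 CPM in CD71+ against 143 and 127 CPM in CD71- for Ccl9 (log2 fold change 1.63, adjusted p = 3.61e-05) and 42.9 and 28.9 CPM in CD71+ against 9.31 and 8.53 CPM in CD71- for Ccl4 (log2 fold change 2.005, adjusted p = 5.06e-05). Il1a had 48 and 44.6 CPM in CD71+ against 16.4 and 11 CPM in CD71- (log2 fold change 1.75, adjusted p = 8.67e-05) and has an annotated gene, Gm14023, on the opposite strand. Il1b, the other main interleukin-1, had 90.1 and 98 CPM in the CD71+ libraries, against 145 and 131 CPM in the CD71- libraries and was not past the threshold (log2 fold change -0.55, SE 0.18, adjusted p = 0.0502). Of the cytokine and chemokine list 12 of 25 tested members rose and 0 fell (median 0.78). The median without the 2 members at or under the floor, and with Cxcl1 at its bound, was also 0.78. In a fit of the culture libraries alone 8 of 21 tested members rose and 0 fell (median 0.75). Il1b passed with DESeq2 size factors (adjusted p = 0.0277), with mitochondrial genes removed (adjusted p = 0.0458), by DESeq2's Wald test (adjusted p = 0.00351), after thinning to equal depth (adjusted p = 0.0366) and without CD71- replicate 2 (adjusted p = 0.0237). Of the cytokine and chemokine list, 6, 10, 11 and 12 members rose and 0, 0, 0 and 1 members fell without each culture library in turn.

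Receptors of migration and recognition changed in both directions. Of the migration and adhesion list 6 of 24 tested members rose and 3 fell. Ccr2, which the macrophage and monocyte list also holds, was among those that rose. Among receptors that sense microbes and antibodies, Clec4n (dectin-2) had 339.9 and 282 CPM in CD71+ against 92.9 and 104 CPM in CD71- (log2 fold change 1.66, adjusted p = 3.03e-05) and Trem2, a lipid-sensing receptor of macrophages, had 72.6 and 78 CPM in CD71+ against 21.1 and 36.1 CPM in CD71- (log2 fold change 1.40, adjusted p = 0.00177). Nlrp3, the inflammasome sensor, was lower, with 159 and 169.7 CPM in CD71+ against 363 and 319 CPM in CD71- (log2 fold change -1.05, adjusted p = 0.00232). Of the pattern recognition and Fc receptor list 7 of 28 tested members rose and 4 fell. Of the NADPH oxidase list 2 of 13 tested members rose and 2 fell, and the catalytic subunit gene Cybb had 519 and 395 CPM in CD71+ against 273 and 213 CPM in CD71- (log2 fold change 0.91, adjusted p = 0.00538). Cybb had an adjusted p of 0.0965 without CD71+ replicate 1. Of the migration and adhesion list, 1, 0, 1 and 3 members fell without each culture library in turn. In the migration and adhesion list 8 rose and 0 fell (median log2 fold change 0.42) with scaling by total counts. Of the pattern recognition list, 3, 2, 4 and 2 members fell without each culture library in turn. In the pattern recognition list 12 rose and 2 fell (median log2 fold change 0.51) with scaling by total counts. Of the NADPH oxidase list, 0, 2, 1 and 3 members rose and 0, 0, 2 and 2 members fell without each culture library in turn. In the NADPH oxidase list 4 rose and 0 fell (median log2 fold change 0.26) with scaling by total counts.

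Type I interferon response genes were lower where they passed under TMM scaling, with 1 exception, but not under scaling by total counts. Oasl2 had 11.7 and 13.5 CPM in the CD71+ libraries, against 51.7 and 54.3 CPM in the CD71- libraries, and Oas2, which makes the second messenger that activates RNase L, had 10.6 and 13.1 CPM in CD71+ against 36.5 and 31.1 CPM in CD71-, so that both CD71+ libraries lay below both CD71- libraries (log2 fold change -2.07, adjusted p = 6.47e-06 for Oasl2 and log2 fold change -1.51, adjusted p = 0.00011 for Oas2). Irf7, the amplifying transcription factor, had 10.4 and 12.8 CPM in CD71+ against 19.2 and 32.3 CPM in CD71- (log2 fold change -1.14, adjusted p = 0.00477). Of the list 1 of 26 tested members rose and 7 fell (median -0.17, or -0.22 without 1 member at 0 in both fractions). Irf7 had an adjusted p of 0.0718 without CD71+ replicate 1. Of the interferon list, 1, 1, 2 and 1 members rose and 4, 6, 8 and 7 members fell without each culture library in turn. In the interferon list 6 rose and 5 fell (median log2 fold change 0.048) with scaling by total counts.

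The title of the series names tumour hypoxia and histone lactylation, a mark that lactate feeds, and most genes of those pathways that passed were lower in CD71+ culture cells under TMM scaling. Slc2a3, a glucose transporter, had 631 and 494 CPM in the CD71+ libraries, against 1863 and 1088 CPM in the CD71- libraries (log2 fold change -1.39, SE 0.23, adjusted p = 0.0012). Hk3, a hexokinase, had 121 and 141 CPM in the CD71+ libraries, against 253 and 406 CPM in the CD71- libraries (log2 fold change -1.33, SE 0.25, adjusted p = 0.00286), and Pfkfb3, which sets the pace of glycolysis through fructose 2,6-bisphosphate, had 147 and 149 CPM in CD71+ against 330.4 and 303 CPM in CD71- (log2 fold change -1.10, adjusted p = 0.000615). By contrast, Slc2a1, the other main glucose transporter, had 556 and 502 CPM in CD71+ against 542 and 557 CPM in CD71- and Ldha, which makes lactate, had 877 and 639 CPM in CD71+ against 799 and 1004 CPM in CD71-, with overlapping groups for both (log2 fold change -0.057, adjusted p = 0.894 and log2 fold change -0.25, adjusted p = 0.409). The lactate transporter gene Slc16a1 was higher, with 8.15 and 7.61 CPM in CD71+ against 2.61 and 3.36 CPM in CD71- (log2 fold change 1.41, adjusted p = 0.00672). Of the glycolysis and lactate list 1 of 24 tested members rose and 7 fell (median -0.42). Slc16a1 had an adjusted p of 0.0672 without CD71+ replicate 1. Of the glycolysis list, 0, 1, 1 and 1 members rose and 3, 3, 8 and 6 members fell without each culture library in turn. In the glycolysis list 1 rose and 3 fell (median log2 fold change -0.10) with scaling by total counts.

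Of the hypoxia response list 1 of 24 tested members rose and 7 fell (median -0.30). Ddit4, an inhibitor of the growth kinase mTORC1, had 71.2 and 52.9 CPM in the CD71+ libraries, against 117 and 181 CPM in the CD71- libraries (log2 fold change -1.26, SE 0.26, adjusted p = 0.00696). Vegfa, the vascular growth factor, had 658 and 729 CPM in CD71+ against 994 and 1226 CPM in CD71- (log2 fold change -0.68, adjusted p = 0.0492). Hif1a, the hypoxia-inducible factor, had 149 and 122 CPM in CD71+ against 139 and 118 CPM in CD71- and did not pass (log2 fold change 0.075, adjusted p = 0.809). Among writers, erasers and readers of histone acylation 0 of 24 tested members rose and 3 fell. That count of falls was near the share of all tested genes that fell (8.36%). The widest gap was that of the deacetylase gene Hdac7, with 87.4 and 107 CPM in CD71+ against 202 and 257 CPM in CD71- (log2 fold change -1.24, adjusted p = 0.0025). Ddit4 had an adjusted p of 0.0717 without CD71+ replicate 2. Vegfa had an adjusted p of 0.22, 0.0573, 0.0643, 0.302, 0.157, 0.173, 0.0501, 0.0539 and 0.0552 with scaling by total counts, under the stricter filter, in a fit of the culture libraries alone, without CD71+ replicate 1, CD71+ replicate 2, CD71- replicate 2, tumour CD71+ replicate 2, tumour CD71- replicate 1 and tumour CD71- replicate 2. Of the hypoxia list, 0, 0, 0 and 1 members rose and 4, 1, 5 and 6 members fell without each culture library in turn. In the hypoxia list 2 rose and 3 fell (median log2 fold change 0.0022) with scaling by total counts. Of the histone acylation list, 0, 0, 0 and 2 members rose and 1, 2, 3 and 5 members fell without each culture library in turn. In the histone acylation list 2 rose and 2 fell (median log2 fold change 0.094) with scaling by total counts.

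Genes tied to suppressive neutrophils did not move one way. Arg1, which depletes arginine, had 588 and 451 CPM in the CD71+ libraries, against 241 and 338 CPM in the CD71- libraries, with both CD71+ libraries above both CD71- libraries but a wide spread within each fraction (log2 fold change 0.84, SE 0.24, adjusted p = 0.0326). Cd274, which encodes PD-L1 and has an annotated gene on the opposite strand, had 286 and 255 CPM in CD71+ against 250.3 and 187 CPM in CD71- (log2 fold change 0.31, adjusted p = 0.296). Spp1, osteopontin, had 690.2 and 462 CPM in the CD71+ libraries, against 82.7 and 74.3 CPM in the CD71- libraries (log2 fold change 2.88, adjusted p = 3.44e-06), and an annotated gene, Gm42793, overlaps it on the same strand, so its counts are uncertain. Dcstamp, a membrane protein of cell fusion in osteoclasts, had 12.1 and 15.2 CPM in CD71+ against 1.36 and 1.54 CPM in CD71- (log2 fold change 3.23, adjusted p = 0.000164), and Siglece, an inhibitory receptor for sialic acid, was lower, with 43 and 41.9 CPM in CD71+ against 88.2 and 82.4 CPM in CD71- (log2 fold change -1.01, adjusted p = 0.000939). Of the list 5 of 25 tested members rose and 4 fell. Arg1 had an adjusted p of 0.0596, 0.249 and 0.142 in a fit of the culture libraries alone, without CD71+ replicate 1 and CD71- replicate 1. Cd274 passed with scaling by total counts (adjusted p = 0.036). In the suppressive neutrophil list 8 rose and 3 fell (median log2 fold change 0.41) with scaling by total counts.

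Iron genes other than Tfrc moved in a few cases. Slc40a1, ferroportin, the only known exporter of cellular iron, had 26 and 23 CPM in the CD71+ libraries, against 68.3 and 50.6 CPM in the CD71- libraries, and both CD71+ libraries lay below both CD71- libraries (log2 fold change -1.28, SE 0.18, adjusted p = 0.00037). Slc11a2 (DMT1), which moves iron out of the endosome where transferrin releases it, had 9.25 and 9.69 CPM in CD71+ against 4.15 and 3.36 CPM in CD71- (log2 fold change 1.32, adjusted p = 0.00277). Of the iron list 5 of 21 tested members rose and 1 fell (median 0.033), and the ferritin genes Fth1 and Ftl1 did not pass. Of the iron list, 1, 2, 2 and 5 members rose and 1, 1, 1 and 2 members fell without each culture library in turn.

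Genes of cell division were higher in part. Cenpf, a kinetochore protein made in late cell cycle, had 18.1 and 20.6 CPM in the CD71+ libraries, against 1.07 and 2.45 CPM in the CD71- libraries (log2 fold change 3.51, SE 0.40, adjusted p = 8.87e-05), and Cenpe had 10.7 and 13.8 CPM in CD71+ against 1.54 and 2.9 CPM in CD71- (log2 fold change 2.50, adjusted p = 0.00296). Top2a, topoisomerase of replicating chromosomes, had 34.3 and 39.1 CPM in CD71+ against 7.83 and 16.8 CPM in CD71- (log2 fold change 1.59, adjusted p = 0.00239). Mki67, the proliferation marker Ki-67, had 117 and 117 CPM in CD71+ against 73.1 and 68.4 CPM in CD71-, and both CD71+ libraries lay above both CD71- libraries (log2 fold change 0.73, SE 0.23, adjusted p = 0.0472). The inhibitor gene Cdkn1a (p21) was lower, with 385 and 352 CPM in CD71+ against 613 and 607 CPM in CD71- (log2 fold change -0.73, adjusted p = 0.00912). Of the cell cycle list 11 of 36 tested members rose and 1 fell (median 0.63); the 6 replication genes Mcm2 to Mcm7 did not pass. Of the Myc and ribosome biogenesis list 3 of 28 tested members rose and 3 fell. Cytosolic ribosomal protein genes were another group, of which 13 of 80 rose and 0 fell (median log2 fold change 0.51). Without each culture library in turn 0, 11, 4 and 57 of these 80 rose, and 41 rose with scaling by total counts. Cenpf had a log2 fold change of 4.17 without CD71- replicate 2. Top2a had a log2 fold change of 2.23 without CD71- replicate 2. Mki67 had an adjusted p of 0.0599, 0.191, 0.166, 0.0987, 0.15, 0.0753 and 0.075 with DESeq2 size factors, without CD71+ replicate 1, CD71+ replicate 2, CD71- replicate 1, CD71- replicate 2, tumour CD71- replicate 1 and tumour CD71- replicate 2. Cdkn1a had an adjusted p of 0.0947, 0.0744 and 0.131 with scaling by total counts, without CD71+ replicate 1 and CD71+ replicate 2. Of the cell cycle list, 5, 4, 5 and 14 members rose and 0, 0, 1 and 1 members fell without each culture library in turn. In the cell cycle list 18 rose and 0 fell (median log2 fold change 0.93) with scaling by total counts. Of the ribosome biogenesis list, 0, 0, 0 and 5 members rose and 0, 1, 2 and 1 members fell without each culture library in turn. In the ribosome biogenesis list 11 rose and 0 fell (median log2 fold change 0.61) with scaling by total counts.

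The mitochondrial share of the counts differed between the fractions and bears on the quality of the libraries. Genes of the mitochondrial genome took 1.449% and 2.174% of all counts in the CD71+ libraries, against 7.094% and 12% in the CD71- libraries. Every CD71- library lay above every CD71+ library, and CD71- replicate 2, the shallowest library, had the highest share. Mitochondrial mRNA took 1.318% and 1.955% in CD71+, against 5.24% and 9.321% in CD71- libraries. Since ribosomal RNA was depleted from these libraries, counts of mitochondrial rRNA may depend on how far the depletion went in each, which was not tested. Mitochondrial rRNA took 0.1286% and 0.2147% in CD71+, against 1.842% and 2.656% in CD71- libraries. Per 100 mitochondrial mRNA counts there were 9.755 and 10.99 rRNA counts in CD71+ and 35.15 and 28.49 in CD71- libraries. With 2 libraries against 2, an exact two-sided permutation test of these shares cannot give a p below 0.333. In the tumour libraries of the same study the shares were 0.829% and 1.04% in CD71+ and 0.413% and 0.202% in CD71- libraries.

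By gene, mt-Rnr1, the small rRNA of the mitochondrial ribosome, had 504 and 831 CPM in the CD71+ libraries, against 9486 and 14643 CPM in the CD71- libraries (log2 fold change -4.18, SE 0.54, adjusted p = 0.00187), and mt-Rnr2, the large one, had 384 and 609.5 CPM in CD71+ against 5605 and 8497 CPM in CD71- (log2 fold change -3.83, adjusted p = 0.00136). mt-Cytb, a subunit of complex III with no copy in another annotated gene, had 584 and 992 CPM in the CD71+ libraries, against 4059 and 8542 CPM in the CD71- libraries (log2 fold change -2.999, SE 0.46, adjusted p = 0.00326). mt-Co1, a subunit of complex IV, had 6493 and 8656 CPM in CD71+ against 24956 and 47419 CPM in CD71- (log2 fold change -2.26, adjusted p = 0.00235). mt-Nd6, the mRNA read from the other strand of the mitochondrial genome, had 102 and 189.9 CPM in CD71+ against 352 and 736 CPM in CD71- and did not pass (log2 fold change -1.90, adjusted p = 0.0563). Of the mitochondrially encoded mRNA and rRNA genes 0 of 15 tested members rose and 14 fell (median -2.95, against 0.026 for all genes). Counts of mt-Co2, mt-Co3, mt-Atp6, mt-Nd3 and mt-Nd4l are uncertain, since 98% to 100% of their stretches of 50 bases also lie in nuclear pseudogenes and their levels were low; mt-Co2, for example, had 5.07 and 7.02 CPM in CD71+ against 33.7 and 47 CPM in CD71-. mt-Co1 (51.1%) and mt-Nd4 (62.2%) share part of theirs. mt-Rnr1 had an adjusted p of 0.0502 without CD71- replicate 2. mt-Cytb had a log2 fold change of -2.36 without CD71- replicate 2. mt-Nd6 passed with DESeq2 size factors (adjusted p = 0.0466), by DESeq2's Wald test (adjusted p = 0.015), under the stricter filter (adjusted p = 0.025), in a fit of the culture libraries alone (adjusted p = 0.0258), without tumour CD71- replicate 1 (adjusted p = 0.0221) and without tumour CD71- replicate 2 (adjusted p = 0.0236).

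Nuclear genes of the same machinery did not follow. Of nuclear genes for subunits of the respiratory chain and ATP synthase 0 of 40 tested members rose and 0 fell (median 0.026), with values of -0.55 to 0.60 as plotted. Of the mitochondrial maintenance list 2 of 39 tested members rose and 2 fell (median 0.15). Dnm1l, which divides mitochondria, had 55 and 59.8 CPM in CD71+ against 30.8 and 27.4 CPM in CD71- (log2 fold change 0.98, adjusted p = 0.00269). The 2 members that fell were Polg (log2 fold change -0.83) and Lonp1 (-0.82). Of the nuclear respiratory chain list, 0, 0, 0 and 1 members rose and 0, 0, 2 and 0 members fell without each culture library in turn. In the nuclear respiratory chain list 2 rose and 0 fell (median log2 fold change 0.34) with scaling by total counts. Of the mitochondrial maintenance list, 1, 1, 1 and 4 members rose and 0, 1, 4 and 1 members fell without each culture library in turn. In the mitochondrial maintenance list 9 rose and 0 fell (median log2 fold change 0.47) with scaling by total counts.

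**Figure D4:**
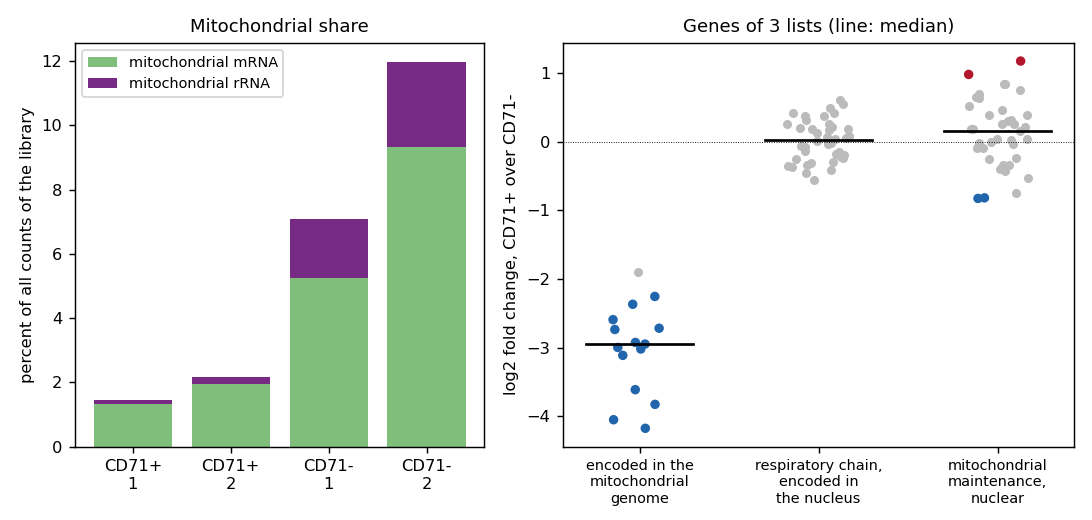
Left, the percent of all counts taken by mitochondrial mRNA and rRNA in each culture library, stacked, with the CD71+ libraries left of the CD71- libraries. Right, log2 fold change (CD71+ over CD71-) of each tested gene of 3 lists, with the median as a line, blue and red where the gene passed lower or higher and grey where it did not; mitochondrially encoded genes lie near a median of -2.95 and the nuclear respiratory chain near 0.03.

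With all genes of the mitochondrial genome removed before scaling and testing, 2578 genes passed, and 2572 of these were among the 2595. Thinning every library to the 9598959 counts of the shallowest gave 2497 passing genes, 2337 of them shared. At equal total counts the CD71+ libraries showed 20706 and 20824 genes with a count and the CD71- libraries 20030 and 19054, with the larger mitochondrial share still among the CD71- counts. The part that the quality of the RNA or the cells takes in the differences was not tested.

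Short structured RNAs made up 7 of the 12 largest falls, but most genes of these classes did not pass. Annotated small noncoding RNA took 0.495% and 0.624% of counts in CD71+, against 0.926% and 1.44% in CD71- libraries. Of 91 tested small nucleolar and Cajal body RNAs, which guide chemical modification of other RNAs, 2 rose and 23 fell (median log2 fold change -0.28, or 0.012 with scaling by total counts), and of 85 small nuclear RNAs 2 rose and 12 fell (median 0.35). Of 47 other small structured RNAs 0 rose and 6 fell (median 0.32), and of 113 miRNA genes 0 rose and 4 fell (median 0.12). Without each culture library in turn 3, 4, 8 and 5 of those 47 and 0, 0, 5 and 2 of the miRNA genes fell. With the same 4 libraries left out in turn, 10, 15, 21 and 17 small nucleolar and Cajal body RNAs and 4, 6, 10 and 6 small nuclear RNAs fell, in the order CD71+ replicates 1 and 2, then CD71- replicates 1 and 2. Gm25395, a small Cajal body RNA gene, had 21.6 and 27.1 CPM in the CD71+ libraries, against 326 and 446 CPM in the CD71- libraries (log2 fold change -3.99, SE 0.32, adjusted p = 1.95e-05). Snora23, a box H/ACA guide of ribosomal RNA, had 3.97 and 5.36 CPM in the CD71+ libraries, against 51.5 and 115 CPM in the CD71- libraries (log2 fold change -4.15, SE 0.54, adjusted p = 0.00155). The small nuclear RNA gene Gm24265 had 14.5 and 19.3 CPM in CD71+ against 374 and 434 CPM in CD71- (log2 fold change -4.58, adjusted p = 0.000352), and its neighbour Gm24407 had 6.6 and 8.62 CPM in CD71+ against 81.4 and 172 CPM in CD71- (log2 fold change -4.06, adjusted p = 0.00488). Among other genes of the largest falls, Tchh, which encodes the hair protein trichohyalin, had 1.1 and 1.31 CPM in CD71+ against 13.2 and 25.1 CPM in CD71- (log2 fold change -3.98, adjusted p = 8.15e-05), and the uncharacterised gene Gm44369 had 0.183 and 0.761 CPM in CD71+ against 13.2 and 15.9 CPM in CD71- (log2 fold change -4.95, adjusted p = 4.69e-05). Gm37376 lies opposite to Malat1 and shares all its 50-base stretches with it, Rn7s6 and Gm26461 have near-identical copies, and their counts are uncertain. Clustered histone genes, whose mRNAs lack a poly(A) tail, also fell in part, with 0 of 35 higher and 7 lower (median -0.68, or 0.20 without CD71- replicate 2). Snora23 had a log2 fold change of -3.46 without CD71- replicate 2. Gm24407 had an adjusted p of 0.12 and 0.089 without CD71+ replicate 1 and CD71+ replicate 2, and a log2 fold change of -3.42 without CD71- replicate 2. Gm44369 had a log2 fold change of -4.22 and -6.22 without CD71+ replicate 1 and CD71+ replicate 2.

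The sequences of 3 of these RNAs are shown because reads of the first pair can be told apart at few bases. They come from GENCODE M21 (mm10), 5′ to 3′, with Gm24265 at chr5:115489459-115489599 and Gm24407 at chr5:115490254-115490394, both 141 bases on the plus strand, and Gm25395 at chr1:87776938-87777209, 272 bases on the plus strand. In the pair, capitals mark the bases that differ, G88A and C99A from Gm24265 to Gm24407, counted from 1 at the 5′ end. In Gm25395, capitals mark the letters of box C (TGATGA) and box D (CTGA), each within 15 bases of an end.
Gm24265: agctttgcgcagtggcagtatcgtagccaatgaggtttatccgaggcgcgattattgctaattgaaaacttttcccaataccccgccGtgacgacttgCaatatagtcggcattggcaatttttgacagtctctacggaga
Gm24407: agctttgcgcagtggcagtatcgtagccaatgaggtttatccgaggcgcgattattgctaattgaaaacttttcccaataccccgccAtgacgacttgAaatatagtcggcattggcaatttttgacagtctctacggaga
Gm25395: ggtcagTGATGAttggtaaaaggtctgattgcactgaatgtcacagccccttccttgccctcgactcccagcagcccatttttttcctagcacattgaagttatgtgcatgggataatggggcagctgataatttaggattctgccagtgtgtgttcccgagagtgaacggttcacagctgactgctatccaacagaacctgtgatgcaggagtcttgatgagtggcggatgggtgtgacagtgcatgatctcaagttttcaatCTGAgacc
A read that covers neither differing base could come from either gene of the pair, so the level of each alone is uncertain. A further gene, Gm22122, shares 50-base stretches with both, so their summed level is uncertain as well.

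Stress and death genes changed in small numbers in each direction. In the unfolded protein and amino acid response 7 of 23 tested members rose and 3 fell, among them Slc7a11, the cystine importer, with 212 and 214 CPM in the CD71+ libraries, against 87.3 and 68.8 CPM in the CD71- libraries (log2 fold change 1.45, SE 0.18, adjusted p = 0.000156), Mthfd2, an enzyme of mitochondrial folate metabolism, with 8.92 and 8.03 CPM in CD71+ against 1.84 and 2.18 CPM in CD71- (log2 fold change 2.08, adjusted p = 0.000771), and Pdia4, a protein folding enzyme, with 87.3 and 70 CPM in CD71+ against 32.1 and 27.7 CPM in CD71- (log2 fold change 1.39, adjusted p = 0.000361). The 3 members that fell were Ppp1r15a (log2 fold change -0.88), Sesn2 (-0.67) and Ddit3 (-0.64). Of immediate early and heat shock genes, which respond to handling, 5 of 20 tested members rose and 3 fell. Egr1 had 136 and 172 CPM in CD71+ against 59.8 and 73.9 CPM in CD71- (log2 fold change 1.20, adjusted p = 0.000936). Those that fell were Jund (log2 fold change -1.51), which has an annotated gene on the opposite strand, Ier3 (-0.79) and Jun (-0.68). Of the BCL2 family and cell death list 2 of 26 tested members rose and 3 fell. Over all tested genes 7.88% rose and 8.36% fell, so the counts of this list were near those shares. Bcl2, which blocks apoptosis, had 7.11 and 9.34 CPM in CD71+ against 1.78 and 3.36 CPM in CD71- (log2 fold change 1.71, adjusted p = 0.00309). The death receptor gene Fas had 48 and 48.5 CPM in CD71+ against 115 and 89.1 CPM in CD71- (log2 fold change -1.08, adjusted p = 0.000856). Of the unfolded protein and amino acid stress list, 4, 5, 7 and 6 members rose and 0, 0, 3 and 1 members fell without each culture library in turn. In the unfolded protein and amino acid stress list 10 rose and 0 fell (median log2 fold change 0.62) with scaling by total counts. Of the immediate early list, 4, 4, 3 and 5 members rose and 0, 1, 4 and 2 members fell without each culture library in turn. In the immediate early list 6 rose and 1 fell (median log2 fold change -0.068) with scaling by total counts. Of the cell death list, 1, 1, 1 and 2 members rose and 1, 1, 4 and 4 members fell without each culture library in turn. In the cell death list 2 rose and 1 fell (median log2 fold change 0.22) with scaling by total counts.

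Markers of other cells were looked at for the whole of each list. Erythroid genes were near absent, with 9 of 11 members at 0 in all 4 libraries, Hbb-bs and Alas2 among them, although erythroid precursors are the cells richest in CD71; 0 of 1 tested member passed. Lymphocyte genes summed to 30.4 and 30.4 CPM in CD71+ and 16.8 and 17.6 CPM in CD71- libraries, with Ncr1 at 0 and Cd3e under 1 CPM throughout. There 2 of 7 tested members rose and 0 fell. Genes of eosinophils, basophils and mast cells summed to 223 and 206 CPM in CD71+ and 211 and 232 CPM in CD71- libraries. In that list 1 of 12 tested members rose and 2 fell, and the eosinophil peroxidase gene Epx had 6.2 and 10.3 CPM in CD71+ against 6.94 and 19.2 CPM in CD71-. Megakaryocyte and platelet genes summed to 101 and 117 CPM in CD71+ and 65.4 and 81.1 CPM in CD71- libraries, where 3 of 6 tested members rose and 0 fell, among them Vwf, with 74.5 and 85.4 CPM in CD71+ against 27.2 and 39.9 CPM in CD71- (log2 fold change 1.26, adjusted p = 0.00865), which had the smallest rise of these and the highest level. Stromal and endothelial genes summed to 178 and 174 CPM in CD71+ and 165 and 146 CPM in CD71- libraries, with Cdh5 at 0. There 1 of 11 tested members rose and 0 fell, namely Lepr, the leptin receptor gene, with 45.1 and 49.5 CPM in CD71+ against 4.92 and 3.63 CPM in CD71- (log2 fold change 3.45, adjusted p = 0.00131). Vwf had an adjusted p of 0.0629 without CD71+ replicate 2. Of the lymphocyte list, 1, 1, 1 and 2 members rose without each culture library in turn. Of the eosinophil, basophil and mast cell list, 0, 0, 2 and 1 members fell without each culture library in turn. In the eosinophil, basophil and mast cell list 1 rose and 1 fell (median log2 fold change -0.76) with scaling by total counts. Of the megakaryocyte list, 2, 1, 1 and 3 members rose and 0, 0, 1 and 0 members fell without each culture library in turn. In the stromal and endothelial list 2 rose and 1 fell (median log2 fold change 0.079) with scaling by total counts.

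**Figure D5:**
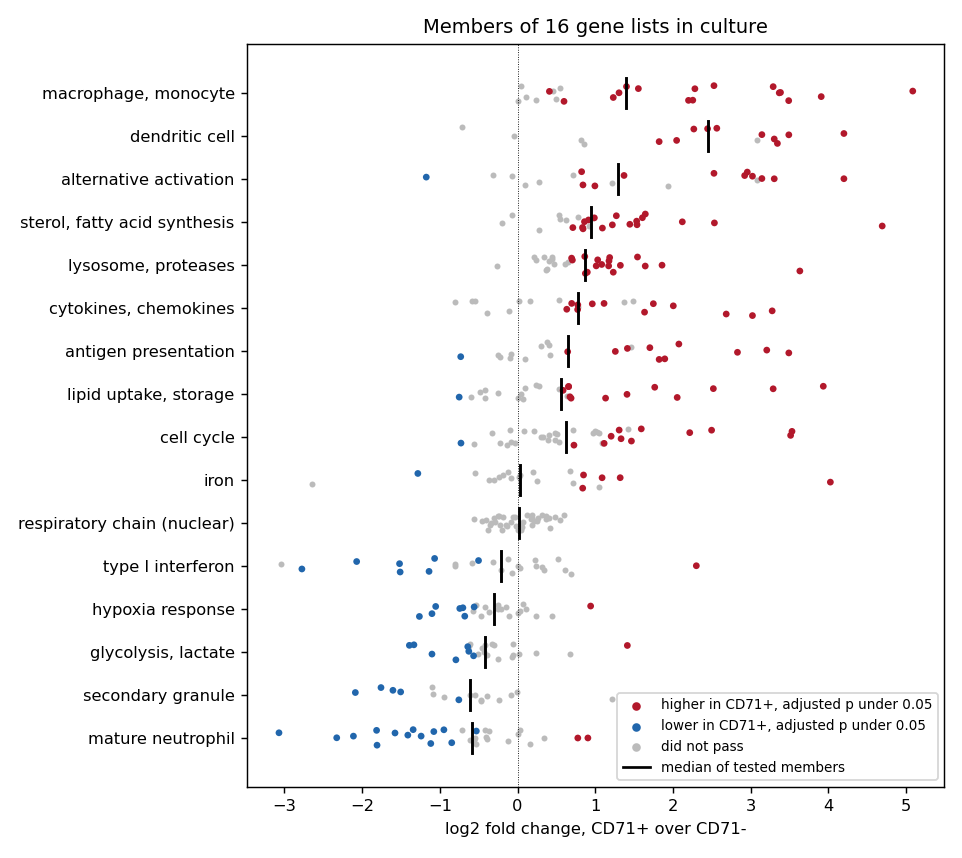
Log2 fold change (CD71+ over CD71-) of each tested member of 16 gene lists, 1 row a list, with the median as a black line, red and blue where a member passed higher or lower in CD71+ and grey where it did not. Members with no count in 1 fraction are placed at their bound against 3 counts. The macrophage and dendritic cell rows lie furthest right and the mature neutrophil and secondary granule rows furthest left, with the nuclear respiratory chain centred on 0.

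The CD71 difference in culture was set against that in the tumour for 11 genes, over a background of 2470 of 15975 genes (15.5%) whose CD71 difference differed between the origins at an adjusted p of 0.05. Mgl2 was higher in CD71+ cells of both origins, with 2.7 and 5.47 CPM in tumour CD71+ and 0.14 and 0.139 CPM in tumour CD71- libraries, and the difference between the log2 fold changes, culture minus tumour, was -0.60 (SE 0.99, adjusted p = 0.73). Tfrc differed by 0.68 (SE 0.27, adjusted p = 0.0948), Ly6g by -1.18 (SE 0.39, adjusted p = 0.0572), Ltf by -1.23 (SE 0.55, adjusted p = 0.169), Adgre1 by -0.12 (SE 0.23, adjusted p = 0.776) and Mki67 by -0.48 (SE 0.33, adjusted p = 0.35), and none of these passed. In the tumour Tfrc had 103 and 108 CPM in CD71+ and 187 and 145 CPM in CD71- libraries (log2 fold change -0.65, adjusted p = 0.0134), so the mRNA of the sort marker was lower in tumour CD71+ cells, against the direction of the sort. That adjusted p was 0.769 with scaling by total counts (log2 fold change -0.082), 0.07 without tumour CD71+ replicate 1, 0.0519 without tumour CD71+ replicate 2 and 0.0518 without tumour CD71- replicate 1. Csf3r, Olr1, Arg1, mt-Co1 and mt-Rnr2 passed, and Elane had too few counts to be tested. For Arg1 the log2 fold change was 0.84 in culture and 3.40 in the tumour, and for mt-Co1 it was -2.26 in culture and 1.39 in the tumour. The adjusted p for Csf3r was 0.134 without culture CD71+ replicate 1, 0.0737 without culture CD71+ replicate 2, 0.0978 without tumour CD71+ replicate 1, 0.0589 without tumour CD71+ replicate 2, 0.102 without tumour CD71- replicate 1 and 0.146 without tumour CD71- replicate 2. For mt-Rnr2 it was 0.0577 without culture CD71- replicate 2. Tfrc passed with DESeq2 size factors (adjusted p = 0.0392), by DESeq2's Wald test (0.0243) and without culture CD71- replicate 1 (0.0129). Ly6g passed with scaling by total counts (0.024), with no filter on low counts (0.0128), without culture CD71- replicate 2 (0.0444) and without tumour CD71+ replicate 1 (0.0369), and Ltf with no filter (0.00157) and without tumour CD71+ replicate 1 (0.00507).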

How the data were processed

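RNA-seq of sorted mouse neutrophils gave a deposited table of gene counts made by the authors, whole numbers per gene and library that were not normalized. A micro-scale Zymo kit gave the RNA, and an Illumina kit for stranded total RNA, with ribosomal RNA depleted, gave the libraries, per the labels' protocols. FastQC, cutadapt, STAR, featureCounts, DESeq2 and the mouse genome mm10 are named per the submitters' processing notes. Their versions, the strand setting and the treatment of multiply mapped reads are not given in the sources used here. Without a strand setting, overlapping and antisense genes are uncertain.

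From the counts, 15975 genes that pass edgeR's filterByExpr were scaled by TMM and tested in edgeR 4.0.16 (limma 3.58.1, R 4.3.3) with the robust quasi-likelihood test over 4 group means and all 8 libraries, with a common biological coefficient of variation of 0.19 and 4 residual degrees of freedom. P-values were adjusted over all tested genes by Benjamini-Hochberg, with a threshold of 0.05. The fit was first tested on simulated data with known fold changes. The outcome is not given here, so no conclusion on the unequal spread of the fractions is drawn from it. Library totals ranged over 9598959 to 22615813 counts in the culture libraries. Floors of 3 counts cover counting error only, since the protocol names no molecular identifiers.

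Alternatives were DESeq2 1.42.0 (size factors, and its Wald test), total-count scaling, removal of mitochondrial genes, no filter, a filter of 5 CPM in 2 libraries, the culture libraries alone, thinning to equal depth, a replicate block and leaving out each library. The main fit did not pair the libraries by replicate number. No other sample columns were used.

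Gene names and exon lengths (for TPM) came from GENCODE M21, which matched all 55450 IDs, and promoters from RefSeq (GRCm38.p6). The comparison, the members and the lists were chosen with earlier results of these data known. Named genes are a set of key genes, the 12 largest rises and falls among called genes of at least 5 CPM whose groups do not overlap, up to 3 rises and 3 falls of each list, defining cell type markers and the mitochondrial genes; genes returned by the rule but not described individually are given by the counts of their list. Some genes stand in more than 1 list, so the counts of different lists are not independent. The 36 lists came from textbook knowledge. 2 of them are given only here: of 21 tested prostaglandin and leukotriene genes 2 rose and 1 fell, with 0, 0, 2 and 1 rises without CD71+ replicate 1, CD71+ replicate 2, CD71- replicate 1 and CD71- replicate 2 and 6 rises with scaling by total counts, and of 10 structural noncoding RNAs 1 rose and 1 fell. Some genes that the rule returned are not reported here.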

Additional observations from a re-analysis of the deposited data

Results flagged for a closer look

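The test of the difference between the CD71 effect in culture and in the tumour passed for 5 of the 11 genes tested. These differences are log2 fold changes, CD71+ over CD71-, in culture minus those in the tumour, tested by edgeR (quasi-likelihood) and adjusted over all genes, and the cause of each was not tested.

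Arg1, the arginine-degrading enzyme gene, had a difference of -2.56 (adjusted p = 0.000883). Its levels were 588 and 451 CPM in culture CD71+ against 241 and 338 CPM in culture CD71- libraries, and 333 and 287 CPM in tumour CD71+ against 37.3 and 21.4 CPM in tumour CD71- libraries, so CD71+ libraries lay higher in both origins. Csf3r, the G-CSF receptor gene, had a difference of -0.96 (adjusted p = 0.0253). It was lower in CD71+ cells of both origins, with log2 fold changes of -2.33 in culture and -1.37 in the tumour, and its call was lost without any 1 of 6 libraries.

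The other 3 genes differed in sign between the origins, except that mt-Rnr2 was also negative in the tumour (-0.12) without tumour CD71- replicate 2. Since ribosomal RNA was depleted, counts of mt-Rnr2 may also depend on the depletion in each library, which was not tested. Olr1, which encodes the scavenger receptor LOX-1, had a difference of 2.15 (adjusted p = 0.000395). Its log2 fold change was 1.41 in culture and -0.74 in the tumour, where it had 379.8 and 293 CPM in CD71+ against 631 and 494 CPM in CD71- libraries. The adjusted p of this tumour difference was 0.00566, but 0.451 with scaling by total counts and 0.0739 without tumour CD71+ replicate 2. mt-Co1 differed by -3.64 (adjusted p = 0.00174), with 5913 and 7488 CPM in tumour CD71+ against 3399 and 1726 CPM in tumour CD71- libraries. Its tumour adjusted p was 0.0101, but 0.124 without tumour CD71- replicate 2. mt-Rnr2 differed by -4.37 (adjusted p = 0.00387), and in the tumour its groups were 1067 and 1093 CPM in CD71+ against 1085 and 396 CPM in CD71- libraries, where its log2 fold change of 0.54 did not pass, though it did with scaling by total counts (adjusted p = 0.0373) and without tumour CD71- replicate 1 (0.0197). The mt-Rnr2 difference was no longer past the threshold without culture CD71- replicate 2 (adjusted p = 0.0577).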

How the results depend on the processing

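The count of passing genes stayed within 1.5 times of 2595 under every setting that kept all libraries. Scaling by total counts gave 2618 higher and 618 lower genes, while leaving out 1 library at a time gave 826 to 2880 passing genes, 451 to 1506 higher and 375 to 1403 lower. The 5 key genes with a culture-tumour difference became 3 with mitochondrial genes removed, since mt-Co1 and mt-Rnr2 are then not tested, and 8 with the replicate block. With the replicate block 3213 genes passed. Deviations of same-numbered culture libraries from their group means correlated by 0.012. The CD71+ libraries differed little from each other, so this value cannot show whether same-numbered libraries share an animal or culture.

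In all, 9 genes that did not pass changed sign under a setting, and none of them passed there. With single libraries left out, log2 fold changes ranged over -0.18 to 0.31 for Tfrc, -3.48 to 3.25 for Mpo, -0.12 to 0.032 for Slc2a1, -0.063 to 0.23 for Hif1a and -0.14 to 0.57 for Prtn3. The same ranges were -0.84 to 0.87 for Clec9a, -1.20 to 0.25 for Epx and -2.24 to 1.59 for Cd3e. Scaling by total counts gave 0.26 for Slc2a1, 0.064 for Ldha and 0.24 for Clec9a. No filter gave 0.0022 for Slc2a1 and 0.00079 for Clec9a, and DESeq2 gave -0.013 for Tfrc with its size factors and with its Wald test. The cause was not tested.

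Of 174 named genes, 25 lost their call with total counts, 59 without CD71+ replicate 1 and 49 without CD71+ replicate 2. Where 1 library is left in a group, its spread is assumed to be that of the other groups. The number of libraries and the depth of the CD71- libraries limit what genes of low count can show.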

Other observations

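Long noncoding and provisional transcripts belonged to no list. Of 1023 tested genes that the annotation classes as TEC, its name for provisional transcripts, which are mostly unspliced and of unknown function, 98 rose and 15 fell in CD71+ cells, with a median log2 fold change of 0.58. Of 1493 long noncoding RNA genes 70 rose and 65 fell (median 0.15), and of 734 pseudogenes 13 rose and 38 fell (median 0.048). The same over 12356 nuclear protein-coding genes was 1074 and 1153. These counts depended on single libraries. Without CD71+ replicate 1, CD71+ replicate 2, CD71- replicate 1 and CD71- replicate 2 in turn, 32, 28, 280 and 44 TEC genes rose and 7, 8, 10 and 27 fell, with medians of 0.65, 0.54, 1.17 and 0.26. In the same order 19, 19, 115 and 36 long noncoding RNA genes rose and 13, 21, 31 and 79 fell, and 2, 2, 26 and 9 pseudogenes rose and 16, 18, 32 and 39 fell. The medians without CD71- replicate 2 were -0.030 for long noncoding RNA genes and -0.055 for pseudogenes. With scaling by total counts 220 TEC genes rose and 8 fell, 137 long noncoding RNA genes rose and 38 fell, and 35 pseudogenes rose and 30 fell.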
